A study of Mus musculus with 2 samples.

Results

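Esam and the genes around it on mouse chromosome 9 were compared between WT and ESAM-null stem cell libraries as a set of 10 genes, out of 23284 gene symbols measured. The set holds Esam, Vsig2, Nrgn, Siae, Spa17, Tbrg1, Ccdc15, Hepacam, Robo4 and Slc37a2, and all 10 had a row. Its genes were chosen by position, and were also selected on the FPKM values and ESAM-null to WT ratios of these 2 libraries, which were known when the set was drawn up, so every difference given here is a description and carries no test. Both libraries were made from E14.5 fetal liver (FL) cells with the LSK CD48- phenotype, that is, lineage marker-negative, Sca-1-positive and c-Kit-positive cells lacking CD48, a fraction enriched for HSCs. One library came from WT fetuses and 1 from ESAM-null fetuses, which were homozygous for the conventional ESAM-knockout allele. The allele was constitutive, so the endothelial and other cells of those fetuses carried it as well. The design of the allele, the mouse strain and how many fetuses or cells entered a library were details not given in the sources used here. Sample labels place the sorted cells in methylcellulose medium, whereas the paper describes the libraries as those of sorted cells.

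ESAM is a transmembrane adhesion molecule of the immunoglobulin superfamily. It is known from the tight junctions of endothelial cells, where it binds ESAM on the opposite cell, and it also marks HSCs and platelets. Genes that lie next to each other may share regulatory DNA or an open chromatin domain, and may also be inherited together with a targeted allele. In the mm10 build, whose positions are given here from RefSeq, Esam lies on chromosome 9 from 37528089 to 37538319 on the plus strand. Its longest transcript with a RefSeq match has 7 exons and 1865 bases. Gaps between genes are counted in GENCODE, another annotation, whose gene ends differ from RefSeq in places. Vsig2 starts 935 bases beyond the end of Esam on the same strand. Nrgn lies on the minus strand, and its 3' end is 286 bases from the end of Vsig2. On the other side of Esam the nearest annotated gene is Msantd2, which ends 3452 bases before Esam starts. No row was matched to Msantd2, so it is not analysed here.

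Values are FPKM, which divide the fragments of a gene by its exon length and by the size of the library, so that genes of different length can be compared. Pairs of values are given with WT first and ESAM-null second. The 2 libraries listed 14305 genes above 0 in WT and 13039 in ESAM-null. Reads per gene were approximated from the smallest steps between low FPKM values, which gave about 9330000 reads for the WT library and 10280000 for the ESAM-null library on the scale of the deposited values. With fragments assumed to be 150 or 300 bp long in place of 200 bp, the ESAM-null depth was 9915000 or 10690000. The 95% intervals are exact (Clopper-Pearson) ones from those reads, and they reflect counting error alone. They take each read as independent, whereas PCR can copy 1 molecule into many reads, so they may be too narrow. Each genotype has 1 library, so there is no spread between replicates to compare a difference with. The genes of the sort gate were alike in both libraries: Kit stood at 94.4 and 76.4 FPKM, and Ly6a, which encodes Sca-1, was 99.8 and 96.7 FPKM. All 8 genes of the list for HSCs and the sort gate were within 2-fold. Cd48, whose product was the marker sorted against, was still 16.6 and 22.0 FPKM.

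Esam, the targeted gene, stood at 117.6 FPKM in WT cells against 12.1 FPKM in ESAM-null cells, or about 1826 and 208 reads. The level was 9.69-fold lower in the ESAM-null library (95% counting interval 8.38 to 11.2). The labelled genotypes therefore match the level of the targeted gene, but Esam was not at 0. The deposited value is 1 number for the whole gene, so the exons behind the remaining reads are unknown. To place this ratio, genes were compared at like level, since ratios scatter more widely at low FPKM: of 1674 other protein-coding genes whose higher value lay between 0.5 and 2 times that of Esam, 0 had a ratio as low (0%). Of all 1720 other genes in that range, 6 did (0.349%).

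Vsig2 encodes another membrane protein of the immunoglobulin superfamily. The gene (chromosome 9, 37539255 to 37544205) had 7.93 FPKM in the WT library, from about 71 reads, and a listed value of 0 in the other. At the depth of the ESAM-null library, 3 reads of this gene would have been 0.302 FPKM. Of 3168 other protein-coding genes between 0.5 and 2 times its WT level, 7 were listed at 0 in ESAM-null, or 0.221%. Of all 3747 other genes whose higher value lay in that range, 15.3% were at least 2-fold lower. A value listed at 0 in FPKM can also be a failed estimate, so no fold is given.

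Nrgn encodes neurogranin, a small calmodulin-binding protein best known from the dendrites of neurons and also present in platelets. In the WT library it was the most highly expressed member. The gene (chromosome 9, 37544493 to 37552745) had 149.8 FPKM in WT against 38.2 in ESAM-null, from about 1750 and 491 reads. The level was 3.92-fold lower in ESAM-null (95% counting interval 3.55 to 4.35), or -1.97 on the log2 scale. Of all 1409 other genes whose higher value lay between 0.5 and 2 times that of Nrgn, 7 had a ratio as low (0.497%). Of the 1361 protein-coding ones, 1 did (0.0735%), and that gene was Esam. Shares over protein-coding genes were computed for Esam, Vsig2 and Nrgn alone. These genes were chosen with their ratios known, and the ranges were set after the values were seen. The shares therefore place the ratios and are not a test.

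**Figure D1:**
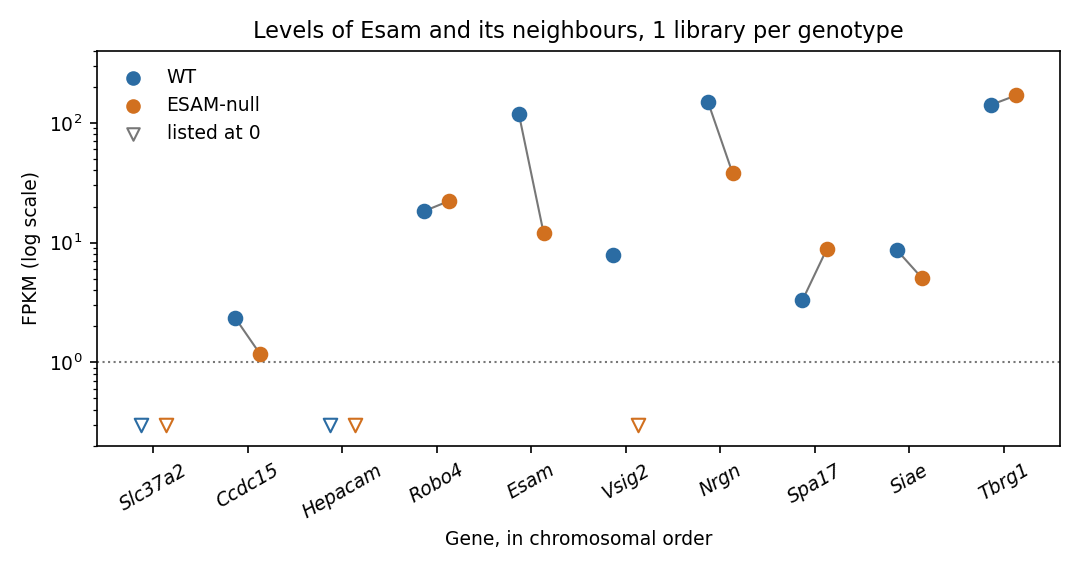
FPKM (log scale) of the 10 members in chromosomal order, for the WT (blue) and ESAM-null (orange) library, 1 point per library, with lines joining the values of a gene. Open triangles mark values listed at 0 and the dotted line marks 1 FPKM. Esam falls from 117.6 to 12.1 FPKM and Nrgn from 149.8 to 38.2 FPKM, Vsig2 is listed at 0 in ESAM-null, and Slc37a2 and Hepacam are listed at 0 in both libraries.

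Beyond Nrgn, the members on the same side of Esam did not share a direction. Spa17 (chromosome 9, 37603294 to 37613916) encodes a sperm protein that binds the anchors of protein kinase A. It had 3.30 FPKM in WT against 8.90 in ESAM-null, from about 15 and 45 reads, and was thus 2.70-fold higher (95% counting interval 1.49 to 5.26). Of other genes between 0.5 and 2 times its level, 3.45% had a ratio as high or higher. Siae (37613821 to 37648258) encodes an esterase that removes acetyl groups from sialic acids. It had 8.64 FPKM in WT against 5.11 in ESAM-null, from about 383 and 249 reads, or 1.69-fold lower (1.441 to 1.996). A ratio as low was found in 21.1% of other genes at like level.

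In RefSeq, Spa17 and Siae lie head to head on opposite strands, and their values may not be separate measurements. Shared bases were counted in GENCODE, whose Siae models reach further, from 37555698 to 37649655. There, 391 (36.9%) of the exonic bases of Spa17 are also exonic in Siae. In the same models Siae shares 741 exonic bases with Tbrg1, or 7.06% of those of Siae and 19% of those of Tbrg1. The annotation behind the values and the use of strand in counting were details not given in the sources used here. Without strand, reads from any shared bases cannot be told apart.

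Tbrg1 (37649182 to 37657312) encodes a nuclear growth inhibitor. It had 141.7 FPKM in WT against 169 in ESAM-null, which was 1.20-fold higher (95% counting interval 1.13 to 1.26) as deposited but a log2 ratio of -0.020 once both libraries were brought to a total of 1000000. Its WT level was close to that of Nrgn, yet it was within 2-fold. Of the 1250 other genes at like level, 52.2% had a ratio as high or higher.

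On the other side of Esam, Robo4 (37401902 to 37414023) encodes a roundabout receptor of endothelial cells that is also found on HSCs. It had 18.4 FPKM in WT against 22.3 in ESAM-null, from about 814 and 1087 reads. This was 1.21-fold higher (95% counting interval 1.11 to 1.33), or a log2 ratio of -0.00082 at a total of 1000000, and 25.2% of other genes at like level had a ratio as high or higher. Robo4 and Esam are both genes of endothelium and HSCs and lie 112962 bases apart in GENCODE. The fold of Esam between the libraries was not shared by Robo4. Ccdc15 (37267462 to 37350218), which encodes a coiled-coil protein, had 2.33 FPKM in WT against 1.17 in ESAM-null, from about 72 and 40 reads. It was 1.99-fold lower (1.329 to 2.997), just inside the 2-fold limit as deposited and just past it, at a log2 ratio of -1.01, with median scaling. At this low level such ratios were common: of 2532 other genes between 0.5 and 2 times its level, 30.5% had a ratio as low.

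Hepacam, a glial cell adhesion gene (37367356 to 37386572), and Slc37a2, a sugar phosphate exchanger of the endoplasmic reticulum (37229149 to 37255738), were listed at 0 in both libraries. For these genes 3 reads of Hepacam would have been 0.102 FPKM in the WT and 0.0927 FPKM in the other library, and 3 reads of Slc37a2 0.0560 and 0.0508 FPKM, so expression above those levels was not detected.

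Of the 10 members, 8 reached 1 FPKM in at least 1 library. Of these, 3 were lower by at least 2-fold in ESAM-null, 1 was at least 2-fold higher and 4 were within 2-fold. Among all 12066 genes that reached 1 FPKM in at least 1 library, 12.8% were at least 2-fold lower and 7.42% at least 2-fold higher, and among the 655 of chromosome 9 the shares were 10.8% and 8.7%. After rescaling to a total of 1000000, a shift of -0.28 on the log2 scale for every gene, 5 members were lower and the shares over all genes were 18.3% and 5.45%. Because the members were chosen with this comparison known, nothing is read from the difference between these shares. The 3 lower members are Esam and the 2 genes that follow it directly. The 6 neighbours above 0 in both libraries had a median log2 ratio of -0.25, with a range from -1.97 to 1.43, against 0.01 over all 11663 such genes. With Vsig2 set to 3 reads in ESAM-null the median was -0.76, and without Nrgn, Siae or Ccdc15 it was 0.26, so the neighbours as a group had no settled direction.

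As a list set by position, every RefSeq gene whose middle lay within 1 Mb of the middle of Esam was taken. Of 80 such entries, 57 were matched to a row in the files, and the rest could not be read. Among the 57, 43 were listed at 0 in both libraries, including all 34 olfactory receptor genes. The other 14 are the 8 measured members, Robo3 at 0.727 and 0.345 FPKM, and 5 genes that reached 1 FPKM. Of the 13 that reached 1 FPKM, 4 were at least 2-fold lower and 2 at least 2-fold higher, against 12.8% and 7.42% of all genes. The 8 members among them were chosen with their ratios known, so the window is not free of that choice. Of the 5 other genes, 1 was lower and 1 was higher. The fourth lower gene was Fez1, a kinesin adaptor gene 683.0 kb from Esam, with 1.57 FPKM from about 16 WT reads and a listed 0 in ESAM-null. The higher genes were Spa17 and Chek1, the DNA damage checkpoint kinase gene. Chek1 lies 815.6 kb from Esam and had 9.01 FPKM in WT against 18.7 in ESAM-null, or 2.08-fold higher (95% counting interval 1.79 to 2.40).

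The most highly expressed of the other genes in the window lay within 2-fold. Stt3a, a catalytic subunit of the oligosaccharyltransferase, had 61.8 and 66.2 FPKM. Ei24, a membrane protein gene of the endoplasmic reticulum, was 32.3 and 52.9 FPKM, and Tmem218, a gene of cilia, was 19.3 and 12.7 FPKM.

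**Figure D2:**
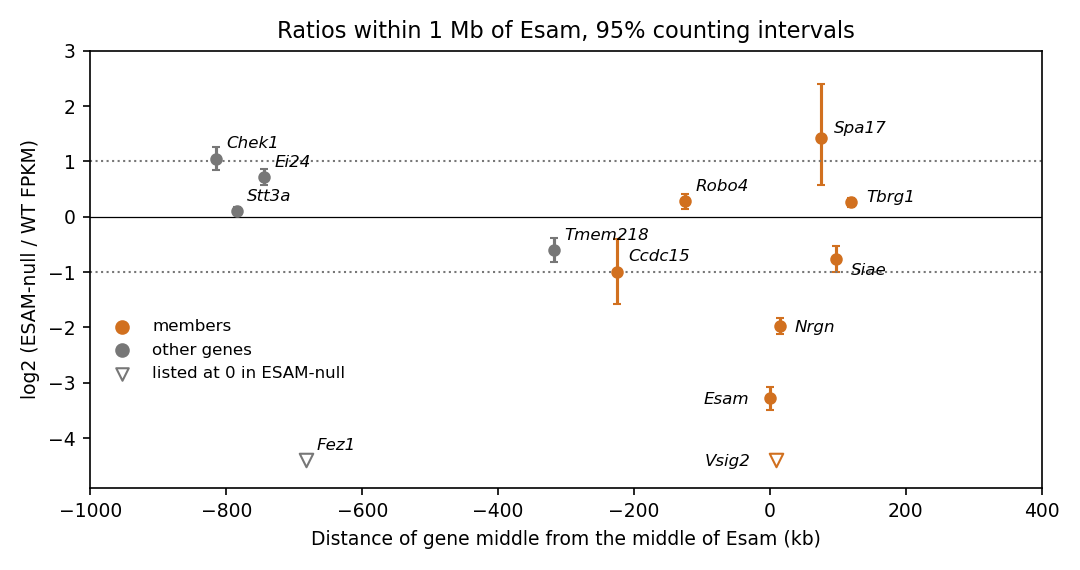
Log2 of the FPKM in ESAM-null over that in WT (y axis) against the distance of the gene's middle from the middle of Esam in kb (x axis), for the 13 genes within 1 Mb that reached 1 FPKM. Bars span the 95% counting intervals, the dotted lines stand at 2-fold, and triangles, whose height has no meaning, mark genes listed at 0 in ESAM-null. Esam (-3.28), Nrgn (-1.97) and Vsig2 lie at or next to distance 0, whereas Robo4 (0.28) and Tbrg1 (0.26) on either side lie close to 0, and just below it after rescaling to a total of 1000000.

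By distance from Esam, the genes past 2-fold were spread as follows. Both measured genes with a middle within 50 kb of Esam, Vsig2 and Nrgn, were at least 2-fold lower. They lie on the same side of Esam, and Msantd2, the nearest gene on the other side, had no matched row. Of the 4 measured genes between 50 and 200 kb, 0 were lower and 1 was higher, and of the 6 between 200 kb and 1 Mb, 1 was lower and 1 higher. Of the 21 between 1 and 5 Mb, 4 were lower and 0 higher. Of 642 measured genes of chromosome 9 outside the window, 10.4% were lower and 8.57% higher. The median log2 ratio over all of chromosome 9 was 0.03, inside the range of -0.05 to 0.12 over the 20 chromosomes compared. Loss of ESAM, the altered allele and any chromosome 9 sequence inherited with it differ between these libraries together, and their parts in the values of Vsig2 and Nrgn cannot be told apart.

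**Figure D3:**
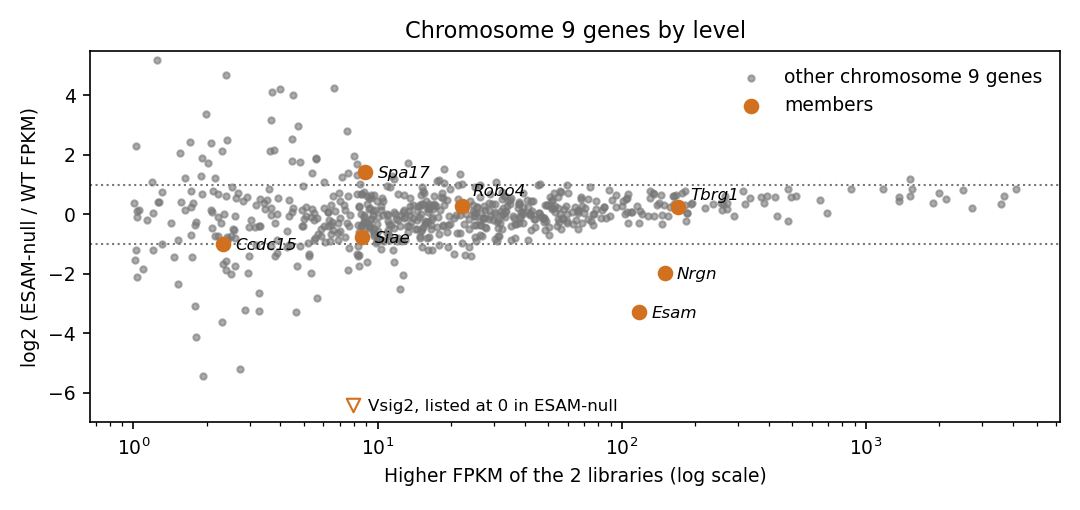
Log2 of the FPKM in ESAM-null over that in WT (y axis) against the higher FPKM of the 2 libraries (x axis, log scale) for chromosome 9 genes that reached 1 FPKM and were above 0 in both libraries. Members are orange, and the triangle marks Vsig2, which is listed at 0 in ESAM-null. The scatter narrows with level, and at 100 FPKM or more Esam (-3.28) and Nrgn (-1.97) stand below the dotted line of 2-fold.

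The promoters of 7 members are in the RefSeq table of GRCm38.p6, which is the mm10 build. Those of Nrgn, Tbrg1 and Robo4 are shown because these 3 neighbours have the most reads, and because Nrgn was 3.92-fold lower where the others were within 2-fold. Each is written 5' to 3' on the gene's own strand. It runs from 250 bases before the transcription start to the first annotated exonic base, or to the start. For Nrgn and Robo4 this leaves out the bases next to the start. Capitals mark the E-box letters CAGCTG.
Nrgn promoter, chr9:37552905-37552995, minus strand: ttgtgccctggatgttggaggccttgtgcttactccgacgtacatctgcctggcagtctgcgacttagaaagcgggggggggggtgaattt
Tbrg1 promoter, chr9:37657313-37657562, minus strand: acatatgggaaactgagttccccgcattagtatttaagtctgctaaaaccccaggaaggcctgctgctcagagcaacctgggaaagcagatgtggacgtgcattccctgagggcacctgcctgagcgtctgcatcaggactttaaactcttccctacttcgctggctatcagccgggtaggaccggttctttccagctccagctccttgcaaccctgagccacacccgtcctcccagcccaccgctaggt
Robo4 promoter, chr9:37401722-37401896, plus strand: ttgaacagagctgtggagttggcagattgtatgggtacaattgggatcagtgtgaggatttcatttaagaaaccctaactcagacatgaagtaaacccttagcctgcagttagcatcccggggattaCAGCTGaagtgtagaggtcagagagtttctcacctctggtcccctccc

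The full windows, from 250 bases before to 50 after the start, were searched on both strands for 6 short motifs of factors known from blood and endothelial cells. The Robo4 window held the E-box CAGCTG, which is in 16.3% of all 32851 windows of the table. The Tbrg1 window held the ETS motif CCGGAAG (8.86% of windows), and the Nrgn window held the SP motif GGGCGG (35.7%). Both of these matches lie outside the printed letters. The RUNX motif TGTGGT and the GATA motifs AGATAA and TGATAA were not in these 3 windows; 16.8%, 11.2% and 9.05% of all windows hold them. These matches describe letters in a window and do not show that a factor binds there.

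Because Esam and Robo4 are also genes of endothelial cells, which can be carried along in a sort, markers of that lineage were read in both libraries. Of 17 endothelial genes, 15 reached 1 FPKM. Esam and Sox17 were at least 2-fold lower, Cdh5 was higher and 12 were within 2-fold. Without Esam and Robo4 the list summed to 1061 and 1079 FPKM, and the median log2 ratio of its 13 genes past 1 FPKM was -0.19. Most of both sums came from Egfl7, a secreted factor gene, at 825.6 and 852.1 FPKM. Tie1 was 51.7 and 40.1 FPKM, and Emcn was 43.2 and 60.0 FPKM. Among junction and receptor genes of endothelium, Cdh5, which encodes VE-cadherin, had 0.954 FPKM in WT against 3.33 in ESAM-null, while Pecam1 was 20.8 and 12.1 FPKM and Kdr, a VEGF receptor gene, was 1.33 and 0.780 FPKM. Among markers of sinusoidal endothelium, Stab2 was 0.0401 and 0.492 FPKM, and Lyve1 had 0.884 FPKM in the WT library and a listed 0 in the other. In bulk samples such as these, fewer cells of a type and less RNA per cell cannot be told apart.

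**Figure D4:**
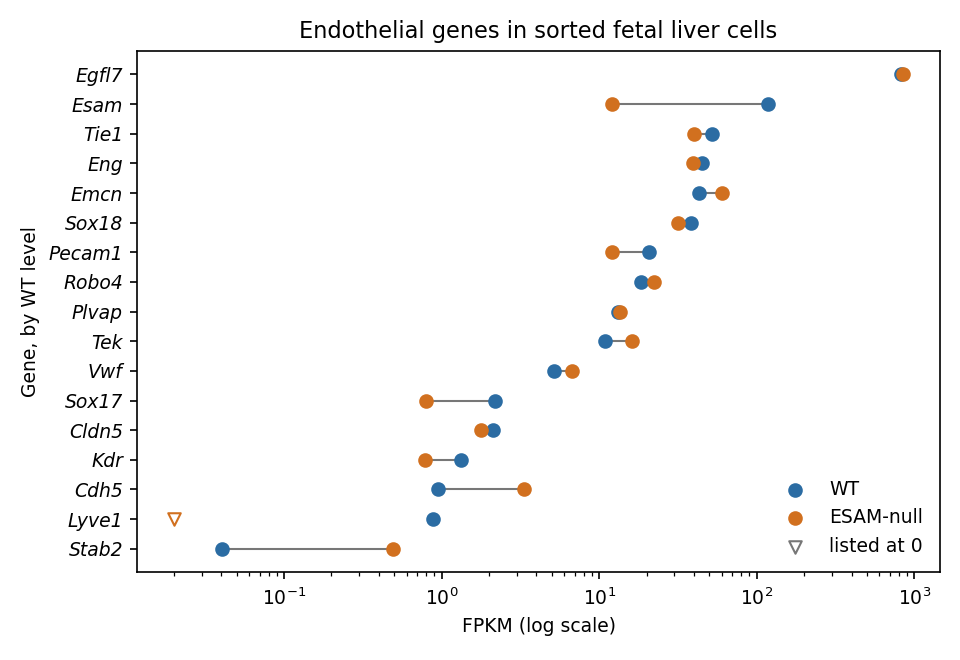
FPKM (x axis, log scale) of the 17 endothelial genes, ordered by WT level, in the WT (blue) and ESAM-null (orange) library, 1 point per library. The triangle marks a value listed at 0. Esam shows the widest gap among genes above 10 FPKM, from 117.6 to 12.1 FPKM, whereas Egfl7 overlaps at 825.6 and 852.1 FPKM.

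Since Esam and Nrgn are also known from platelets, megakaryocyte markers were set beside them. The 5 markers summed to 84.2 and 94.7 FPKM. Pf4, platelet factor 4, was 19.5 and 22.8 FPKM, and Gp9, a subunit of the platelet receptor for von Willebrand factor, was 57.8 and 65.9 FPKM. Itga2b, the platelet integrin alpha chain, was 5.05 and 2.23 FPKM and past 2-fold lower. Ppbp was 1.46 and 3.69 FPKM, past 2-fold higher, and Gp1bb had 0.296 FPKM in the WT library only. Of 5 neuron and glia markers, 4 were listed at 0 in both libraries, among them Gfap and Snap25, while Nrgn stood at 149.8 FPKM in WT. The fifth, Camk2a, was 9.44 and 7.56 FPKM.

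Markers of other fetal liver cells were read in the same way. The 7 hepatocyte markers summed to 42.03 and 37.1 FPKM, of which Trf, the transferrin gene, was 32.5 and 22.8 FPKM. Past 2-fold, the albumin gene Alb and the apolipoprotein gene Apoa2 had 1.04 and 2.37 FPKM in the WT library, from about 18 and 7 reads, and a listed 0 in ESAM-null, whereas Apoa1 was 1.09 and 7.52 FPKM. Afp, the fetal liver marker alpha-fetoprotein, was 4.35 and 6.69 FPKM. The 7 macrophage markers summed to 28.0 and 30.6 FPKM, of which C1qa, a complement subunit gene, was the 1 past 2-fold, at 2.91 FPKM in the WT library and a listed 0 in the other. Cd68 was 14.18 and 19.98 FPKM, C1qb 3.85 and 1.94 FPKM, C1qc 3.38 and 5.07 FPKM, and Csf1r, the receptor of the macrophage growth factor, 2.17 and 3.59 FPKM. The 7 erythroblast markers summed to 474 and 195 FPKM, but 1 globin gene carried this difference: Hba-a2, whose reads may be shared with its near-identical copy Hba-a1, was 373 and 57.1 FPKM, and the other 6 summed to 100.6 and 138.1 FPKM. Slc4a1 and Alas2, genes of the red cell membrane and of heme synthesis, were the other markers past 2-fold lower, at 6.08 and 0.471 FPKM and at 8.08 and 0.282 FPKM. Klf1, the erythroid transcription factor gene, was past 2-fold higher at 4.16 and 20.3 FPKM, and Hbb-b1 was 78.8 and 114.5 FPKM. The sort for lineage marker-negative, c-Kit-positive cells selects against mature cells of these types, and their part in the values of Vsig2 and Nrgn was not tested.

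Relatives of the members elsewhere in the genome were read as well, from lists of gene families. Of 12 genes of the JAM and CTX immunoglobulin families, to which Esam and Vsig2 belong, 11 had a row and 6 reached 1 FPKM. The 2 past 2-fold were Esam and Vsig2 themselves. Jam3 was 34.8 and 41.4 FPKM and F11r, which encodes JAM-A, was 23.4 and 25.8 FPKM. Cxadr, the coxsackievirus and adenovirus receptor gene, was 2.04 and 1.07 FPKM, and Jam2 was 1.33 and 1.16 FPKM. In the roundabout family, Robo1 was 0.302 and 0.463 FPKM and Robo2 was listed at 0, so that Robo4 was the one receptor gene above 1 FPKM. Its ligand family had Slit2 at 1.66 and 0.877 FPKM, and Unc5b, a partner of Robo4, had 0 and 0.0344 FPKM.

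Slc37a2 was at 0 while other SLC37 exchangers were present. Slc37a1 was 14.04 and 7.12 FPKM, Slc37a4, the glucose-6-phosphate transporter, was 11.1 and 17.0 FPKM, and Slc37a3 was 1.13 and 1.14 FPKM. Hepacam2, like Hepacam, was listed at 0 in both libraries. Among the 8 relatives outside the set that reached 1 FPKM, 0 passed 2-fold as deposited, but Cxadr, Slit2 and Slc37a1 lay just inside it and were past 2-fold lower after rescaling to a total of 1000000, at log2 ratios of -1.21, -1.20 and -1.26.

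No gene came close to the pair of values shown by Esam. The nearest, by the Euclidean distance between log2 FPKM in WT and in ESAM-null over these 2 libraries, was Mlxip, a glucose-sensing transcription factor gene, at 44.8 and 16.1 FPKM and a distance of 1.45. Tbxas1, the thromboxane synthase gene, followed at 43.5 and 14.53 FPKM (1.46), and the pseudogene Gm5643 at 46.1 and 7.83 FPKM (1.49). All lie on other chromosomes. Nrgn was not among these 3 genes.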

How the data were processed

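RNA from E14.5 LSK CD48- cells of WT and ESAM-null FLs, 1 library each, was sequenced as 75 bp single-end reads after low-input cDNA synthesis. The authors deposited FPKM per gene symbol. The processing notes of the submitters list mm10 and, in no stated order, Cuffnorm 2.2.1, SAMtools 0.1.19, TopHat2 2.0.13 and Bowtie2 2.2.3. Annotation, normalization setting and use of strand were details not given in the sources used here.

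For each gene that reached 1 FPKM in 1 library, the ESAM-null value was divided by the WT value, and 2-fold was the limit. Positions came from RefSeq (GRCm38.p6), matched for 98.8% of symbols, and exons from GENCODE M21. Reads were FPKM times effective length (fragments of 200 bp, SD 80 bp, assumed) times the depth at which low genes gave whole numbers. Of 124 low genes in WT and 87 in ESAM-null, 83.1% and 82.8% lay within 0.1 of a whole read. In ESAM-null this share was 17% at a depth of 9000000 and 2.74% at 12000000. The steps were checked on simulated data. These used the same transcript lengths and assumed fragments and counting error alone, so errors in those assumptions were not checked. Ranges of 0.5 to 2 times a member's level were set after the values were seen. Members, gene lists and tests were chosen with earlier results of these data known. All members, the window genes past 2-fold or highest in level, up to 4 genes of each list and the 3 genes nearest to Esam were to be named; others were named after their values were seen. Computation ran in Python 3.11.15 with the packages pandas 2.3.3 and numpy 2.4.6, intervals with scipy 1.17.1, and plots with matplotlib 3.10.9.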

Additional observations from a re-analysis of the deposited data

How the results depend on the processing

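No paired analysis was possible because each genotype has 1 library. Leaving out a library was not possible for the same reason. Esam kept its direction in all alternatives run, with a log2 ratio of -3.55 after rescaling to a total of 1000000, a shift of -0.28 for every gene. The other scalings moved it by at most 0.02, and of these the median and trimmed mean scalings put Ccdc15 past 2-fold. This gave 4 lower members and 5 lower window genes, beside 13.2% and 13.1% of all genes. The rescaling raised the members at least 2-fold lower from 3 to 5, adding Siae and Ccdc15, and the lower window genes from 4 to 6. It left 1 window gene higher in place of 2, while 18.3% of all genes were lower and 5.45% higher. It turned Tbrg1 to -0.020 and Robo4 to -0.00082, values of single neighbours that were added after seeing the data. Over all genes it made 77.1% of those past 2-fold lower ones, against 63.2% as deposited. A threshold of 1.5-fold gave 5 lower members and 7 lower window genes, beside 21.8% of all genes. One of 3-fold gave 0 higher members and 0 higher window genes, beside 4.06% of all genes. With 1 FPKM required in both libraries, which removes genes listed at 0, 2 members and 2 window genes were lower, beside 7.13% of all such genes. With 1 FPKM added, 1 window gene was higher, beside 4.71% of all genes. Within 0.5 Mb of Esam, 1 window gene was higher, beside 7.42% of all genes as deposited. The median log2 ratio of the neighbours was 0.26 among genes of at least 5 FPKM, -0.75 and -0.62 with 0.1 and 1 FPKM added (which admits Vsig2), -0.53 after the rescaling, and -0.76 to 0.26 when 1 neighbour was left out. Of 114 recomputed values, 90 stayed within their limits, 18 moved past them and 6 reversed in direction. Those limits still let a count shift, as for the lower members from 3 to 2. Over all 12066 genes past 1 FPKM, 1540 were lower and 895 higher. These counts went to 2632 and 2095 at 1.5-fold, 877 and 490 at 3-fold, and 568 higher with 1 FPKM added. Other filters change the number of genes read. Lower and higher were 639 and 343 of 9140 genes with at least 5 FPKM, and 761 and 437 of 10674 with 1 FPKM in both libraries. With at least 0.1 FPKM, 2868 of 14115 genes were lower. With no minimum beyond a value above 0, 3264 of 14703 genes were lower and 1343 higher. Counting limits Spa17 and Ccdc15 most.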
